A study of Homo sapiens with 34 samples.

Results

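Chromatin occupancy at 9 human genes of homologous recombination and the ATR checkpoint was described in U2OS, an osteosarcoma cell line. The genes were BRCA1, BRCA2, PALB2, RBBP8, RAD50, ATM, ATR, ATRIP and TOPBP1, 9 of 19970 protein-coding genes on chromosomes 1 to 22 and X. They were chosen by name, and every called region lying in a gene or within 1 kb of it was taken from each of 20 region lists. The assay was CUT&RUN, in which a nuclease tethered to an antibody cuts out the DNA beside the antibody's target. Antibodies were against SMARCA1, the SNF2L ATPase that slides nucleosomes, OGG1, which excises oxidised guanine, and Orc6, a subunit of the origin recognition complex. The groups for SMARCA1 and OGG1 were siGl3 non-treated, siGl3 with H2O2, siOrc6 non-treated and siOrc6 with H2O2, and those for Orc6 were siGl3 non-treated and siGl3 with H2O2. siGl3 is the control siRNA and siOrc6 targets Orc6. H2O2 was given at 5 mM for 30 min. All groups shared 72 h of siRNA, a double thymidine block and a release of 3 h, so that cells were in early S phase. Each of the 10 groups had n = 2 libraries, numbered by batch in the labels, and nothing in the labels says whether a batch was a separate culture. The other 14 of the 34 samples were not analysed here.

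Homologous recombination repairs a broken chromosome by copying the intact sister, so it works in S and G2 phase. The MRE11 complex, which holds RAD50, binds the broken end and calls in the kinase ATM. CtIP, the product of RBBP8, helps to trim the end to single-stranded DNA. BRCA1 and PALB2 then lead BRCA2 to the site, where BRCA2 prepares the single strand for pairing with the sister. Single-stranded DNA at breaks and stalled forks also draws ATRIP, which carries the kinase ATR, and TOPBP1 switches ATR on. These are descriptions of the proteins, whereas the data concern the DNA of their genes.

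Region lists differed in length before any gene was looked at. They held 6992 to 132408 regions and covered 31.8 to 825 Mb. The mean share of a gene covered, over all genes, was 1.77% to 26.7% in non-treated libraries and 7.27% to 53.6% in H2O2 libraries. Read numbers behind each list are not in these files, so depth is unknown, and its part in the list lengths cannot be told apart from occupancy. All 4 SMARCA1 siOrc6 lists, and none of the SMARCA1 siGl3 lists, carry a mark of resubmission, and for SMARCA1 an effect of siOrc6 cannot be told apart from it. The second OGG1 siOrc6 non-treated library stood apart from the other 3 OGG1 non-treated ones, with 18 regions in the 9 genes against 8 or 9.

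After H2O2 the covered share was higher at 8 of the 9 genes, over the 3 antibodies together. The share is the percent of the gene and its 1 kb margins that lies under called regions. The exception was TOPBP1, whose difference was as large but whose libraries overlapped more. The increase was widest in the OGG1 libraries, where it reached nearly all of ATRIP and most of BRCA1, and was a few percentage points or less at most genes in the SMARCA1 libraries. With same-batch libraries kept as pairs, as the labels' batches pair them, BRCA1, RBBP8 and ATR passed, and BRCA2, RAD50 and ATM (adjusted p = 0.0561 each), ATRIP (0.0693) and PALB2 (0.0800) did not, in the exact permutation test. Of all 19970 genes, 4102 passed as higher and 0 as lower with the pairs kept. Without pairing, 41.9% of all genes passed in the same direction and 0.00501% in the other, so the rise at these genes lies on a rise across much of the genome.

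**Figure D1:**
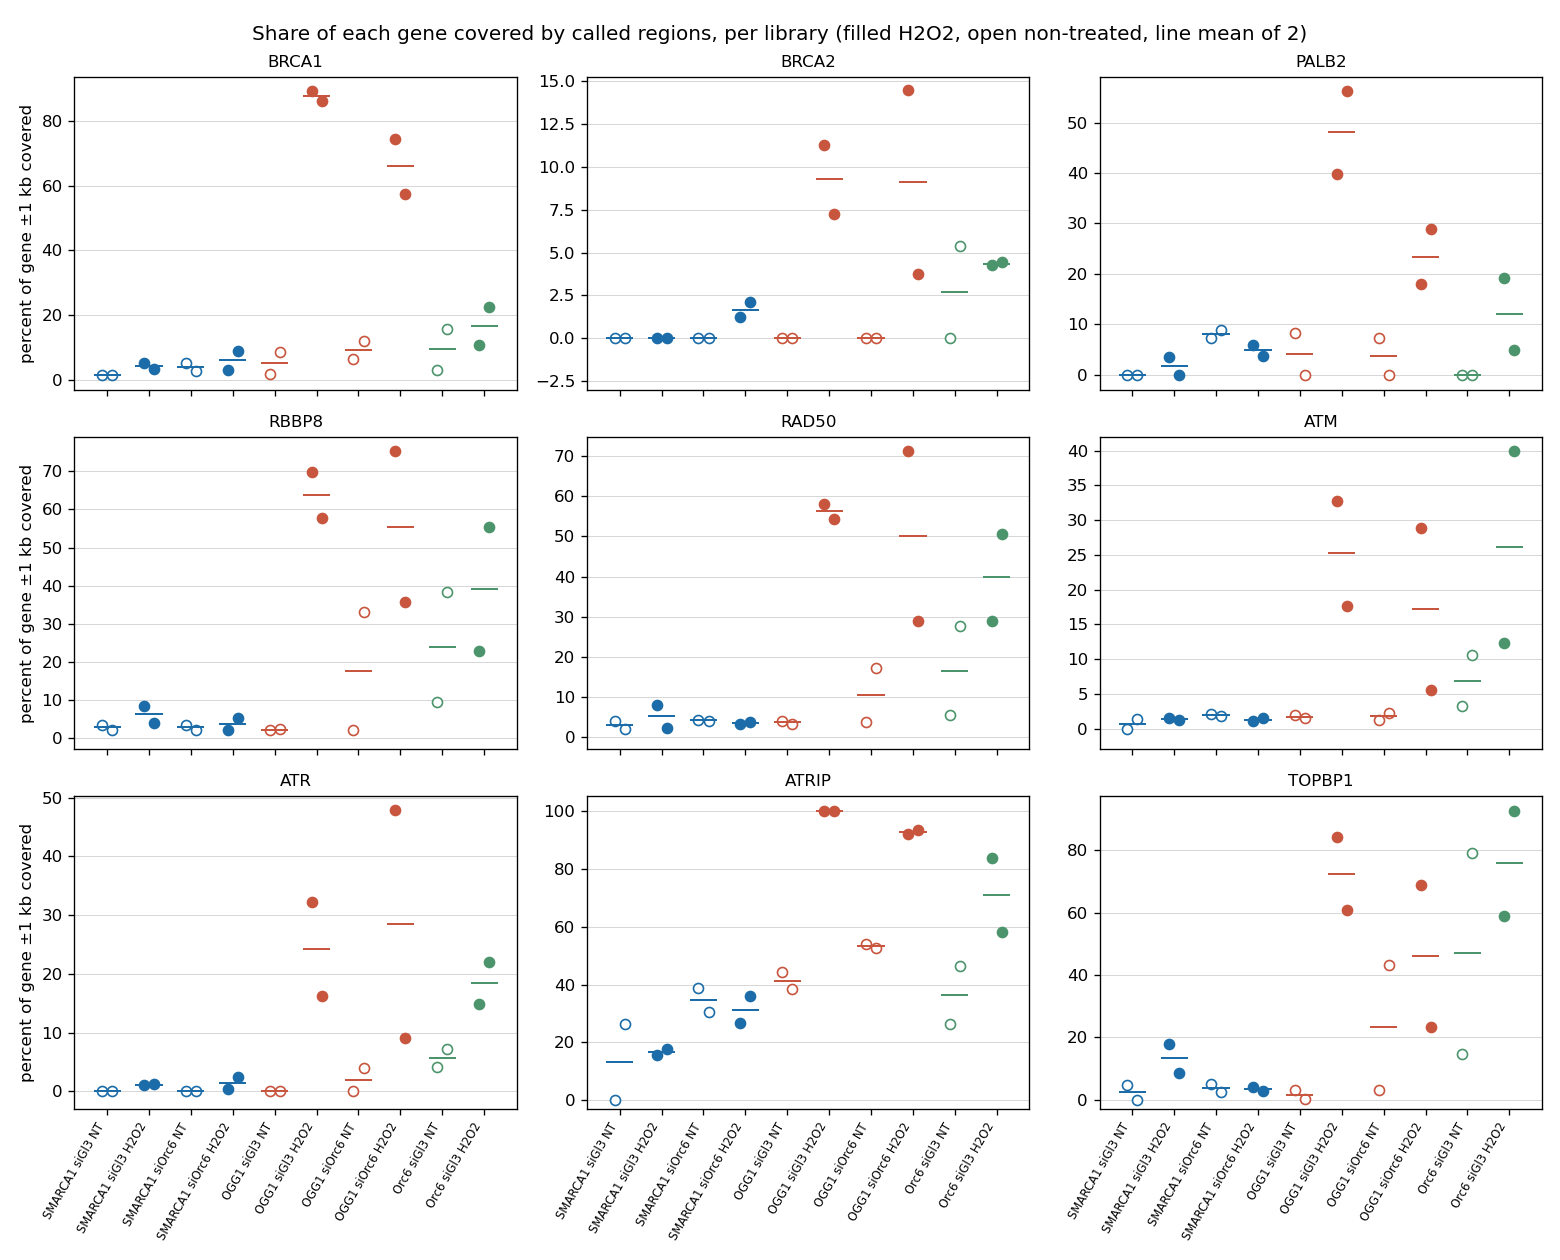
Percent of each gene and its 1 kb margins covered by called regions, 1 point per library and a line at the mean of 2; the vertical scale differs between the panels. Filled points are H2O2 libraries and open points non-treated ones; colours mark the antibody (blue SMARCA1, red OGG1, green Orc6), and the OGG1 libraries with H2O2 at ATRIP sit at 92.1% to 100%.

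BRCA1, the scaffold of the BRCA1 complexes, lies on the minus strand of chromosome 17, 43044295 to 43170327. In OGG1 libraries its covered share was 1.78%, 8.75%, 6.64% and 12.2% without treatment and 89.1%, 86.0%, 74.5% and 57.5% with H2O2. The 2 sets did not overlap. SMARCA1 covered 1.41% to 5.36% of BRCA1 without treatment and 3.02% to 9.07% with H2O2, which overlap. Orc6 gave 3.13% and 15.8% without treatment and 10.8% and 22.7% with H2O2, again overlapping. Over all libraries H2O2 was 30.21 percentage points above non-treated, higher in 9 of 10 pairs of the same batch (adjusted p = 0.0228, exact permutation test within antibody and siRNA, Benjamini-Hochberg over all genes).

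PALB2, which bridges BRCA1 and BRCA2, lies on the minus strand of chromosome 16, 23603165 to 23641310. OGG1 covered 8.25%, 0%, 7.34% and 0% of it without treatment and 39.9%, 56.2%, 17.9% and 28.8% with H2O2. Both Orc6 non-treated libraries had no region there, and the H2O2 ones covered 19.2% and 4.80%. The H2O2 libraries of these 2 antibodies were thus all above the OGG1 or Orc6 non-treated ones. For SMARCA1 the order was different, with 0.00% to 8.79% without treatment and 0.00% to 5.97% with H2O2. The difference over all libraries was 14.82 points (adjusted p = 0.0313, same exact permutation test, higher in 7 of 10 pairs).

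BRCA2, which acts after BRCA1 and PALB2, lies on the plus strand of chromosome 13, 32315077 to 32400268, and was the least covered of the 9. No SMARCA1 or OGG1 library without treatment had a region in it. With H2O2 the OGG1 libraries covered 11.3%, 7.25%, 14.5% and 3.77%. SMARCA1 covered none of it in both siGl3 H2O2 libraries and 1.25% and 2.09% in the siOrc6 ones. Orc6 had no region there in its first non-treated library and 1 region covering 5.39% in the second, against 4.25% and 4.44% with H2O2. That Orc6 region, 32320537 to 32325235, lay inside the gene, whereas every H2O2 library with a region had one over the start. The difference was 4.34 points (adjusted p = 0.0199, exact permutation test, higher in 7 of 10 pairs).

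Counted as present or absent, BRCA2 was occupied in 4 of 4 OGG1 libraries with H2O2 and 0 of 4 without (adjusted p = 0.0323, Fisher's exact test, Benjamini-Hochberg over genes occupied in 4 of 8 libraries). Of the 1767 genes that could be tested, 88.6% passed in this direction, and this pattern was found in 7.84% of all genes. None passed in the other direction. Each set of 4 pooled siGl3 and siOrc6 libraries, and this test did not keep the siRNAs apart. With 4 libraries against 4 the smallest p is 0.0286, so the adjusted value rests on how many genes share the pattern. PALB2 was occupied in 4 against 2 and ATR in 4 against 1, which cannot reach that p; without the second OGG1 siOrc6 non-treated library, the one with a region, ATR passed (adjusted p = 0.0379, Fisher's exact test). The call needs the adjustment to be limited to those genes: over genes occupied in 1 to 7 of 8 libraries the adjusted p was 0.175 and 0 genes passed. With equal lists no OGG1 library had a region at BRCA2. The call also ended when any 1 of the OGG1 H2O2 libraries was left out (adjusted p = 0.0599 to 0.0651, Fisher's exact test). With the same-batch pairs kept together the adjusted p was 0.141 in the exact sign test. The smallest p of that sign test is 0.125, so no gene could pass it and its outcome says nothing about BRCA2.

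The resection genes RBBP8 and RAD50 had similar profiles. RBBP8 lies on the plus strand of chromosome 18, 22914139 to 23026486, and RAD50 on the plus strand of chromosome 5, 132556977 to 132646349. OGG1 covered 2.11%, 2.23%, 2.05% and 33.2% of RBBP8 without treatment and 69.8%, 57.7%, 75.4% and 35.6% with H2O2. At RAD50 the OGG1 values were 4.10%, 3.37%, 3.77% and 17.2% against 58.0%, 54.4%, 71.3% and 29.0%. Within OGG1 the highest non-treated value at both genes came from the second siOrc6 library, the one that stood apart, and lay below the OGG1 H2O2 values. Orc6 covered 9.52% and 38.3% of RBBP8 without treatment and 22.8% and 55.3% with H2O2, which overlap. At RAD50 the Orc6 values were 5.47% and 27.7% against 29.0% and 50.7%, which do not. In SMARCA1 libraries the ranges overlapped at both, 2.02% to 3.50% against 2.16% to 8.34% at RBBP8 and 2.18% to 4.33% against 2.43% to 8.10% at RAD50. RBBP8 rose by 23.75 points (adjusted p = 0.0478, exact permutation test) and RAD50 by 23.37 points (adjusted p = 0.0241, exact permutation test). Across the 20 libraries the covered shares of the 2 genes had a Pearson r of 0.981, the highest of any pair of the 9; the libraries share list length, and no test was made.

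ATM, the kinase that answers to broken ends, lies on the plus strand of chromosome 11, 108223067 to 108369102, and is the longest of the 9 at 146.0 kb. Its covered share was low outside the OGG1 and Orc6 lists: SMARCA1 gave 0.00% to 2.10% without treatment and 1.05% to 1.51% with H2O2. OGG1 gave 1.93%, 1.51%, 1.30% and 2.20% without treatment and 32.8%, 17.6%, 28.8% and 5.61% with H2O2. Orc6 gave 3.21% and 10.6% without treatment and 12.3% and 40.0% with it. The OGG1 and Orc6 sets did not overlap by treatment, and the SMARCA1 sets did. The difference was 11.65 points (adjusted p = 0.0199, exact permutation test, higher in 7 of 10 pairs).

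ATR, the kinase of stalled forks, showed the most regular order of the 9. It lies on the minus strand of chromosome 3, 142449235 to 142578733. SMARCA1 had no region there in 4 of 4 non-treated libraries and covered 1.04%, 1.23%, 0.363% and 2.48% with H2O2. OGG1 gave 0%, 0%, 0% and 4.00% without treatment and 32.3%, 16.3%, 47.8% and 9.04% with H2O2, and Orc6 gave 4.12% and 7.22% against 14.8% and 22%. Every H2O2 library was above the non-treated library of its batch, in 10 of 10 pairs, and the sets did not overlap for any antibody. For SMARCA1 this order rests on the 1 kb margin, where all of the 0.363% in the first siOrc6 H2O2 library lay. The difference was 13.20 points (p = 0.000257, the smallest this exact permutation test can give, and adjusted p = 0.00745). Without the margins it was 12.71 points (p = 0.000772, adjusted p = 0.00949, exact permutation test). For SMARCA1 alone, ATR was occupied in 4 of 4 against 0 of 4 libraries (adjusted p = 0.0586, Fisher's exact test), a pattern shared by 5.02% of all genes, with the reverse in 0.02%. Without the 1 kb margins ATR was occupied in 3 of 4 against 0 of 4. With the margins that test called 0 genes, while 1006 had an unadjusted p of 0.0286.

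ATRIP, the partner that carries ATR, is the shortest gene at 20.9 kb, on the plus strand of chromosome 3, 48446737 to 48467645. It had the largest covered share of the 9 in 16 of 20 libraries. OGG1 gave 44.4%, 38.3%, 54.1% and 52.5% without treatment and 100%, 100%, 92.1% and 93.4% with H2O2. The span was fully under called regions in both OGG1 siGl3 H2O2 libraries. Orc6 gave 26.3% and 46.4% against 83.6% and 58.3%. SMARCA1 overlapped, with 0.0% to 38.9% without treatment and 15.5% to 36.1% with H2O2. The difference was 26.54 points (adjusted p = 0.0255, exact permutation test, higher in 8 of 10 pairs).

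TOPBP1, the activator of ATR, lies on the minus strand of chromosome 3, 133600238 to 133661941. OGG1 gave 2.98%, 0.198%, 3.01% and 43.3% without treatment and 84.2%, 60.9%, 69.0% and 23.4% with H2O2. Orc6 covered it broadly under both conditions, with 14.8% and 79.1% without treatment and 59.0% and 92.7% with H2O2. SMARCA1 gave 4.84%, 0%, 5.00% and 2.48% without treatment and 18%, 8.42%, 4.08% and 2.69% with H2O2, both siOrc6 H2O2 values lying within the non-treated range. The sets of all 3 antibodies overlapped, for OGG1 and Orc6 through the second OGG1 siOrc6 non-treated library and the second Orc6 non-treated library. The difference of 26.66 points did not pass (adjusted p = 0.0625, exact permutation test). It passed without the second Orc6 non-treated library (adjusted p = 0.0382, exact permutation test).

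By antibody, the H2O2 libraries were all above the non-treated ones at 8 of 9 genes for OGG1, 5 of 9 for Orc6 and 1 of 9 for SMARCA1. The shares of all genes with that order were 39.9%, 30.4% and 7.0%. None of the 9 had the reverse order, which 0.01%, 1.59% and 0.245% of all genes had. The median difference over the 9 genes was 23.37 points, against 13.53 points over all genes. The H2O2 change in OGG1 minus that in SMARCA1 was positive at all 9, from 8.35 points at BRCA2 to 66.99 points at BRCA1. None of these antibody differences passed (adjusted p = 0.269 to 0.360, exact permutation test of the antibody label). No gene of the 19970 passed that test, and 1215 had an unadjusted p under 0.05. Its smallest p was 0.00154 in the exact permutation test, so a gene could pass only if many others had so small a p.

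**Figure D2:**
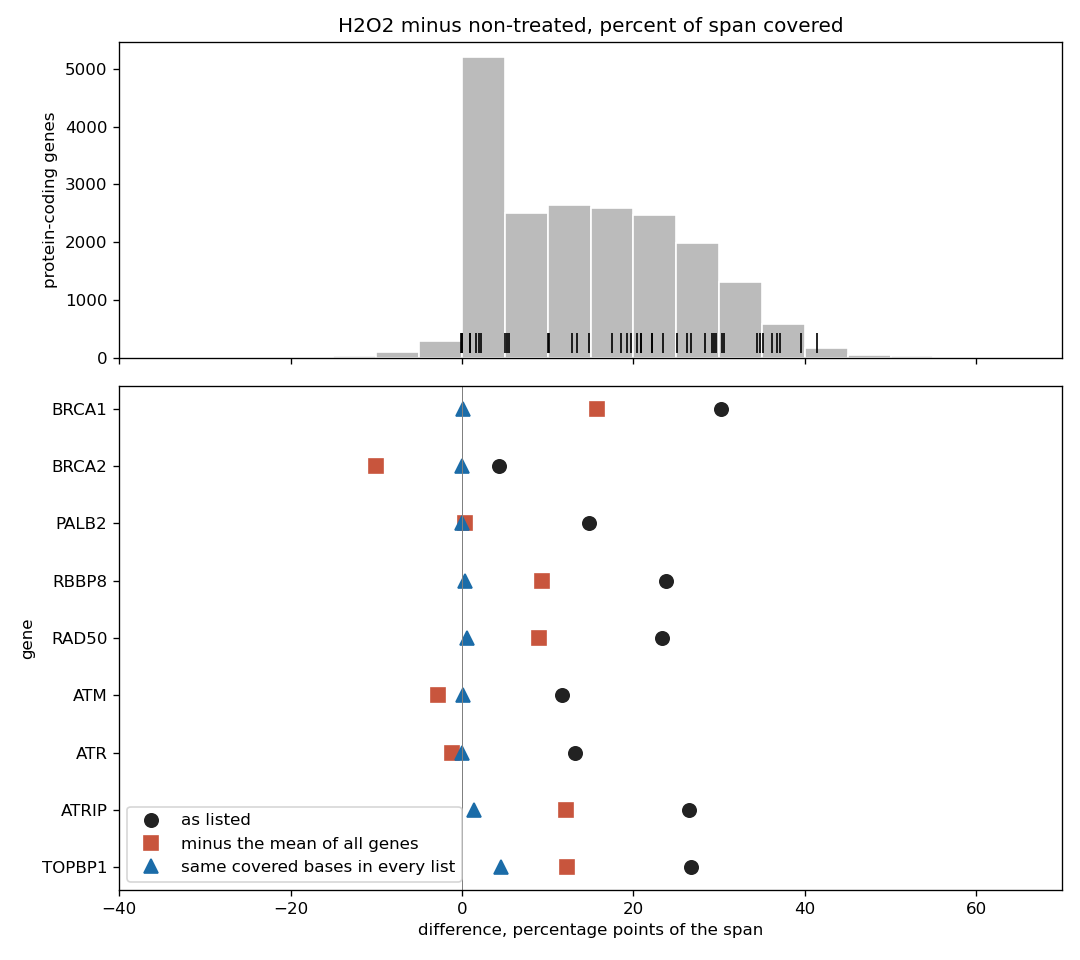
Above, the number of protein-coding genes by H2O2 minus non-treated difference in percent of span covered, in bins of 5 points, with ticks for the 43 other pathway genes; below, the 9 genes as listed (black), after subtracting each library's mean over all genes (red) and with lists cut to the same covered bases (blue). Black points run from 4.34 to 30.21, red points from -10.08 to 15.79, and blue points lie between 0 and 4.57.

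Equal lists and centring changed these differences. When every list was cut to the 6992 regions of highest total signal, or to the same 31.8 Mb, 0 genes passed in the exact permutation test, with 1489 and 349 at an unadjusted p under 0.05. No library then kept a region at BRCA2, PALB2 or ATR, so these settings say nothing about those 3 genes, and equal bases by construction leave little room for a difference over all genes. With the same number of regions ATRIP was 16.04 points higher with H2O2, TOPBP1 12.35, BRCA1 11.96 and RBBP8 8.60, while RAD50 was at 1.38. In the exact permutation test the unadjusted p was 0.142, 0.127, 0.00412, 0.116 and 0.598 in that order, and the adjusted p at BRCA1 was 0.436. In another setting each library's mean over all genes was subtracted. A value there is the gene's change minus the mean change, which was a rise of 14.42 points. BRCA2 was at -10.08, so it rose less than the mean (adjusted p = 0.00286, exact permutation test). A gene without a region in any library would also be below 0 in this setting, at minus the mean change. BRCA2, the least covered of the 9, is near that case, so its call here says little beyond its low covered share. ATM was at -2.77 and ATR at -1.22, and none of the other 8 genes passed. Of all 19970 genes, 5423 passed as lower and 1189 as higher in that setting. BRCA1 rose by 15.79, TOPBP1 by 12.24, ATRIP by 12.12, RBBP8 by 9.33, RAD50 by 8.95 and PALB2 by 0.40 points more than the mean change. Leaving out single non-treated libraries also ended calls in the exact permutation test on the full lists, without the subtraction. Without the first or second OGG1 siOrc6 library, the adjusted p was 0.0780 and 0.0800 at BRCA2, 0.0665 and 0.0678 at RAD50, 0.0726 and 0.0720 at ATM, and 0.0772 and 0.0702 at ATR. Without the second of them PALB2 had 0.0592. Without the first Orc6 library the values were 0.0530 at BRCA1, 0.0571 at BRCA2, 0.0553 at PALB2, 0.0545 at RAD50 and 0.0769 at ATM, and without the second Orc6 library 0.0629 at ATM. RBBP8 lost its call without any 1 of 14 of the 20 libraries, with an adjusted p of up to 0.0949 in the exact permutation test. ATRIP kept its call without each of the 20 libraries.

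The 9 genes split by whether a region lay over the start. A start was scored as overlapped where a region met the window from 250 bases before to 50 bases after an annotated transcription start. The starts of RAD50, RBBP8 and ATM were overlapped in 19 of 20 libraries each, those of ATRIP and TOPBP1 in 18, and the BRCA1 start next to NBR1 in 20. In the annotation, 20.2% of 15811 genes with a start window were overlapped in 18 or more of the 20. The other 3 genes, BRCA2, ATR and PALB2, were overlapped in 8, 10 and 12 libraries.

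At BRCA2 the start was overlapped in 8 of 10 H2O2 libraries and 0 of 10 non-treated ones. The 8 were all 4 of OGG1, both of Orc6 and the 2 SMARCA1 libraries with siOrc6. Regions over it were 1.09 and 1.82 kb wide for SMARCA1, 2.03 to 8.80 kb for OGG1 and 4.00 and 4.64 kb for Orc6. This pattern, 8 or more of 10 against 0 of 10, was met by 58 genes, 0.367% of those with a start window, and its reverse by none. These limits equal the counts at BRCA2 itself, and start windows were added after the data were seen. The small share is therefore no test of BRCA2. In the exact permutation test over all start windows the raw p was 0.00154 and the adjusted p 0.199, so it did not pass. With lists of the same number of regions or the same covered bases, no library had a region over the BRCA2 start, so no difference could be seen there. ZAR1L, on the opposite strand, starts 145 bases from the BRCA2 start and its own start was overlapped in the same number of libraries, 8 of 20.

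ATR was overlapped at its start in 8 of 10 H2O2 and 2 of 10 non-treated libraries (adjusted p = 0.266, exact permutation test). The 2 were the second OGG1 siOrc6 and the second Orc6 library. PALB2 was overlapped in 8 of 10 against 4 of 10 (adjusted p = 0.390, exact permutation test). Its 4 non-treated libraries were both SMARCA1 siOrc6 ones and the first OGG1 library of each siRNA. DCTN5 starts 156 bases away on the opposite strand, and its start was overlapped in 12 of 20 libraries as was that of PALB2. For start windows 0 genes passed this exact permutation test, and 2145 had an unadjusted p under 0.05.

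**Figure D3:**
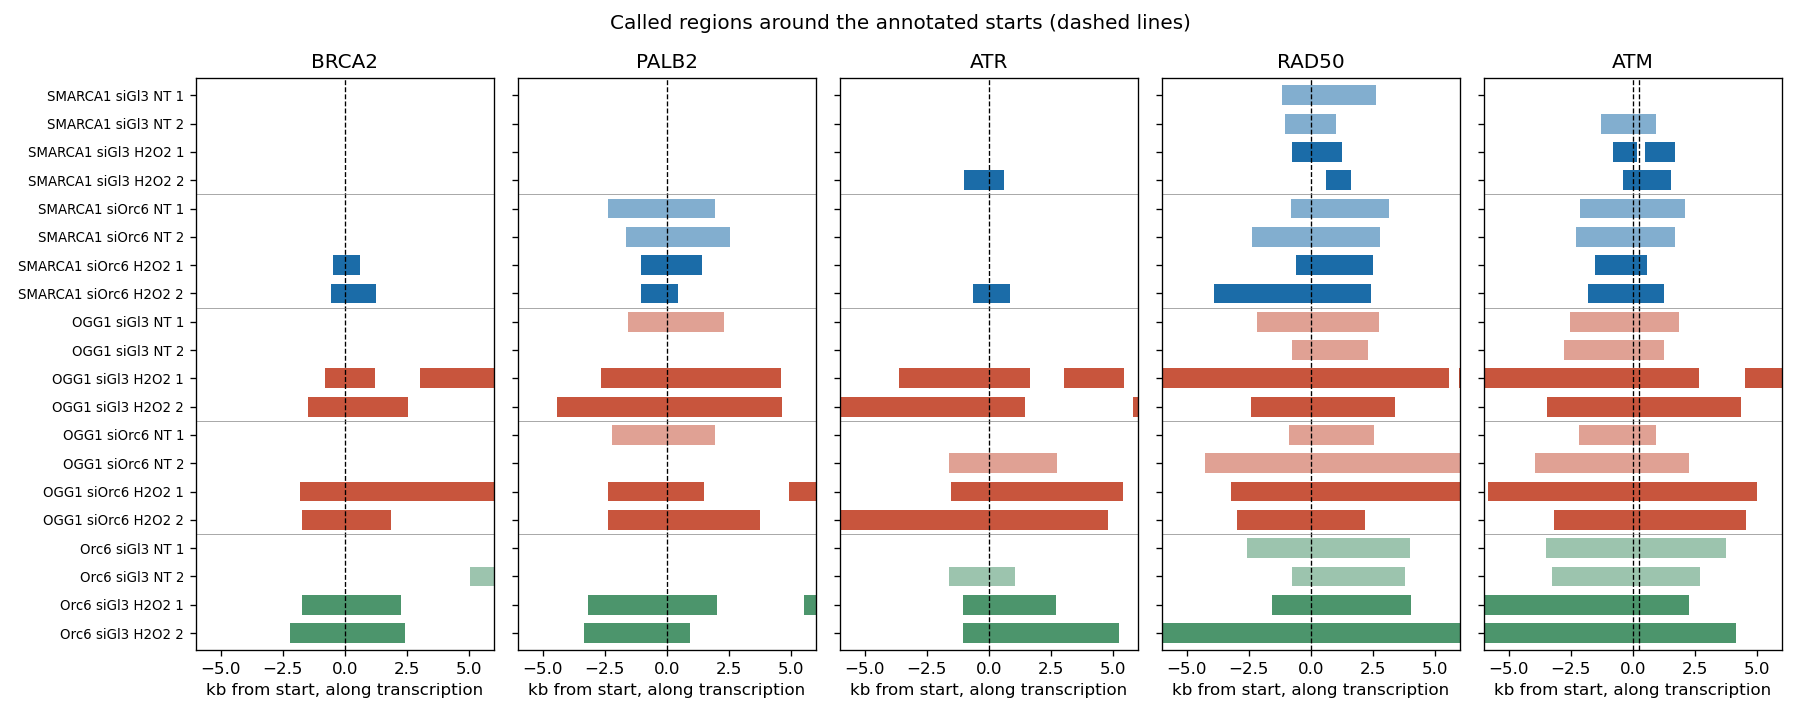
Called regions within 6 kb of the annotated start (dashed) of 5 genes, 1 row per library and distance in kb along the direction of transcription; colours mark the antibody (blue SMARCA1, red OGG1, green Orc6) and pale bars are non-treated libraries. BRCA2 has bars over the start in 8 rows, all H2O2, and RAD50 and ATM in 19 rows each.

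The bases just upstream of these starts are shown to set the 3 starts with few overlaps beside 2 starts overlapped in 19 of 20 libraries. Sequences are from RefSeq (build GRCh38), written 5′ to 3′ on the gene's strand and ending at the base before the start. They run back to the neighbouring gene or for 250 bases, and capitals mark matches to the motifs named after them.
BRCA2 (chr13:32315364-32315507, plus strand): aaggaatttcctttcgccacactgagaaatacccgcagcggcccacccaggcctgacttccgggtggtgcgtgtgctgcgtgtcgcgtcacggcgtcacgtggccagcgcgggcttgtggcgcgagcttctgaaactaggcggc
PALB2 (chr16:23641311-23641465, minus strand): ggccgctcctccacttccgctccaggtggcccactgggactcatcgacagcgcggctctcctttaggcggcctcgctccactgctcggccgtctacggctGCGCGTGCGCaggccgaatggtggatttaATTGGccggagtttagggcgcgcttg
ATR (chr3:142578734-142578983, minus strand): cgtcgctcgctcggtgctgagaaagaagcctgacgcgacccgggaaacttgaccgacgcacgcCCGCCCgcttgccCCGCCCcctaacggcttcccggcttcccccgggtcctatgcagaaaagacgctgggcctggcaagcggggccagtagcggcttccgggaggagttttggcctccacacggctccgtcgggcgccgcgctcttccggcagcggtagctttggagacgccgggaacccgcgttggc
RAD50 (chr5:132556816-132556976, plus strand): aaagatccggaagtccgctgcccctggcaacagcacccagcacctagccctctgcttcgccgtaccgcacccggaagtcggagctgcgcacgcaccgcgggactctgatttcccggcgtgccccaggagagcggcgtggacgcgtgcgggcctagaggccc
ATM (chr11:108222817-108223066, plus strand): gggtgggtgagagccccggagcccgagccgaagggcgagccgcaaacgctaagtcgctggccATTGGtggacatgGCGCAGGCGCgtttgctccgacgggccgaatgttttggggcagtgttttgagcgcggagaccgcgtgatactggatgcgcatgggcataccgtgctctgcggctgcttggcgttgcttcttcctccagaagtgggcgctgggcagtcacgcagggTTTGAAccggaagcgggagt

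The motifs searched on both strands were the CCAAT box, the GC box (GGGCGG), 2 forms of the E2F site (TTTCCCGC or TTTGGCGC), the core of the CHR element (TTTGAA), the NRF1 motif, the CRE (TGACGTCA) and the ZNF143 motif. In 250 bases upstream of 22131 start windows of protein-coding genes, the share holding the CCAAT box was 32.7%, the GC box 53.7%, the E2F forms 1.73% and 0.687%, TTTGAA 11%, the NRF1 motif 6.58%, the CRE 2.02% and the ZNF143 motif 0.303%. BRCA2 and RAD50 matched none of the 8 in the stretch shown, although their starts were overlapped in 8 and 19 libraries. ATR held the GC box at 2 places. PALB2 held the NRF1 motif and CCAAT, and ATM held both of these and TTTGAA. None of the 9 genes matched an E2F form in its 250 bases. The 5 stretches had 64.4% to 69.6% G+C, against a median of 62.0% over all start windows for the whole 250 bases. A match describes the letters and is not a measured site.

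BRCA1 has 2 annotated starts, and they differed in occupancy. The far one is next to NBR1, a selective autophagy receptor gene that starts 82 bases away on the other strand. It was overlapped in all 20 libraries, as was the NBR1 start. The usual one, 45 kb further along, was overlapped in 16, and the 4 libraries without it were all non-treated. They were both SMARCA1 siGl3 libraries, the second SMARCA1 siOrc6 one and the first OGG1 siGl3 one. The 2 upstream windows share a stretch of 62 bases that is 88.7% identical. Capitals mark the 7 differing bases.
BRCA1 usual start (chr17:43125553-43125614, minus strand): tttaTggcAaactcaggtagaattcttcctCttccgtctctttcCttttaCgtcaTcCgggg
BRCA1 far start (chr17:43170370-43170431, minus strand): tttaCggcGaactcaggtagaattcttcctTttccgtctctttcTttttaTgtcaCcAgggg

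Counted only up to the usual start, a span of 81.1 kb, BRCA1 was covered by 0.00% to 22.3% without treatment and 1.76% to 87.6% with H2O2. The difference was 29.70 points (adjusted p = 0.0309, exact permutation test), so the far start did not carry the call.

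Regions in the 9 genes were also counted by position, over a start or away from one, for each antibody. In SMARCA1 non-treated libraries 23 of 27 regions in the 9 genes lay over an own start, 85.2%, and 1 lay over no protein-coding start. With H2O2 these were 32 of 82, 39.0%, and 43. For OGG1 the own-start regions were 29 of 44, 65.9%, without treatment and 40 of 285, 14.0%, with H2O2, when 235 regions lay over no protein-coding start. For Orc6 they were 15 of 54 and 20 of 68. More regions were thus added in the bodies than at the starts with H2O2 for SMARCA1 and OGG1. These counts have no test, since several regions of 1 library fall in the same gene. The whole lists of both antibodies were also longer with H2O2, and many of the starts already had a region without treatment. The same count was not made over all genes, so whether this is particular to the 9 was not tested. Widths at OGG1 ran up to 20.4 kb without treatment and 78.0 kb with H2O2. The widest, in the second OGG1 siGl3 H2O2 library, ran from 42990648 to 43068601 on chromosome 17, over the 3′ end of BRCA1 and the starts of IFI35 and RPL27.

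**Figure D4:**
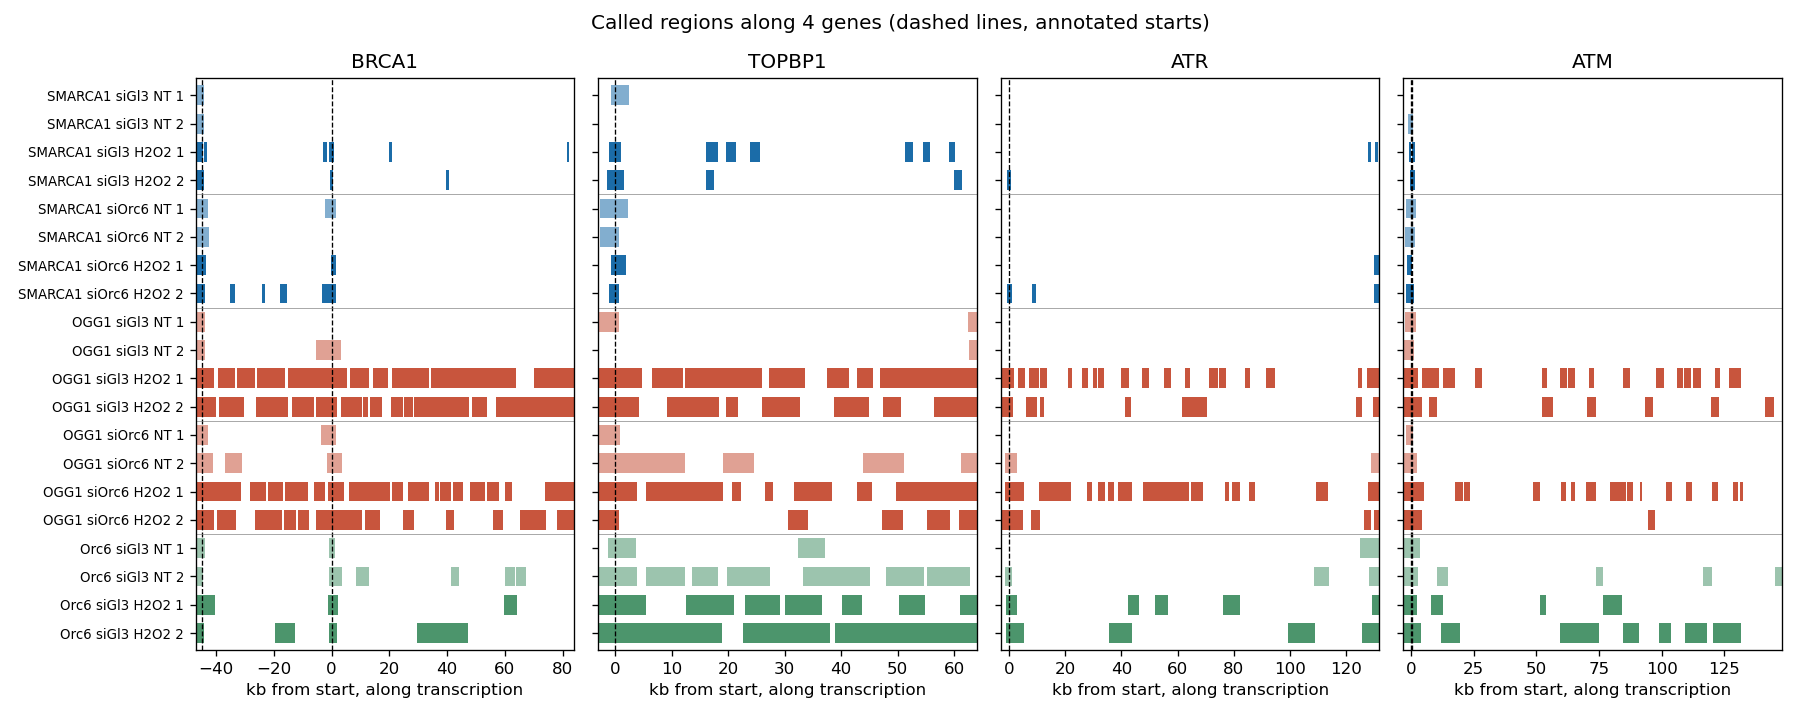
Called regions along BRCA1, TOPBP1, ATR and ATM, 1 row per library, with distance in kb from the usual start along transcription and dashed lines at annotated starts; colours mark the antibody (blue SMARCA1, red OGG1, green Orc6) and pale bars are non-treated libraries. SMARCA1 bars of non-treated libraries lie at the starts, and OGG1 bars with H2O2 fill most of BRCA1, 57.5% to 89.1% of it.

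Some regions counted for these genes belonged to the start of another gene. Of the regions at ATR, 12 lay over the start of XRN1, the exoribonuclease gene past its 3′ end, and not over that of ATR. For SMARCA1 with H2O2 this was so in 3 of 4 libraries, and in the first siOrc6 one it was the sole region, at 142446194 to 142448711. The covered share of ATR in SMARCA1 libraries is therefore partly that of its neighbour's start. At ATRIP, 17 regions lay over the start of TREX1, an exonuclease gene inside the annotated span, 6 of them also over SHISA5. TOPBP1 had 4 such regions over CDV3. XRN1, SHISA5, CDV3, IFI35 and RPL27 were named after their values were seen. ATM starts 429 bases from NPAT on the opposite strand, and both were overlapped in 19 of 20 libraries. TF starts 57 bases from TOPBP1 and both were overlapped in 18 of 20. Regions over such paired starts cannot be assigned to 1 of the 2 genes. The start of LOC124909487, 715 bases from that of TOPBP1, was overlapped in 17 of 20, and that of C11orf65, a gene whose span overlaps ATM, in 13.

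Within a list, regions over these starts ranked differently from gene to gene. A percentile is the rank of a region, lowest first and ties averaged, as a percent of its library's list, here by the authors' total signal or maximum signal. RAD50 stood high in most SMARCA1 lists. Its start region was at the 92.7th to 97.1st percentile of maximum signal in 5 of the 7 SMARCA1 libraries that had one, apart from 5.51 in the first siGl3 non-treated and 88.9 in the second. In OGG1 H2O2 libraries it was at 98.6, 98.7, 99.6 and 98.8. BRCA1 gave 98.6, 95.8, 99.1 and 98.7 there, by the higher of its start regions. BRCA2 was lower in the same lists, at 89.5, 81.4, 70.6 and 82.9, as was ATR at 89.5, 88.7, 84.6 and 82.9. For Orc6 with H2O2, BRCA2 gave 24.9 and 42.5 and ATR 49.6 and 47.2, against 98.3 and 93.3 at BRCA1 and 93.1 and 87.8 at ATM. RAD50 was less high in the Orc6 lists, at 57.0 and 62.3 without treatment and 83.7 and 79.2 with H2O2. By total signal the BRCA2 start region lay at 7.94 and 76.2 in the 2 SMARCA1 lists, 53.6 to 78.8 in the OGG1 lists and 18.9 and 9.66 in the Orc6 lists. Among the 8 libraries with a BRCA2 start region, BRCA2 had the lowest percentile of maximum signal of the 9 genes, or shared it, in 7. Percentiles from lists of different length show no change between conditions and were not tested.

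**Figure D5:**
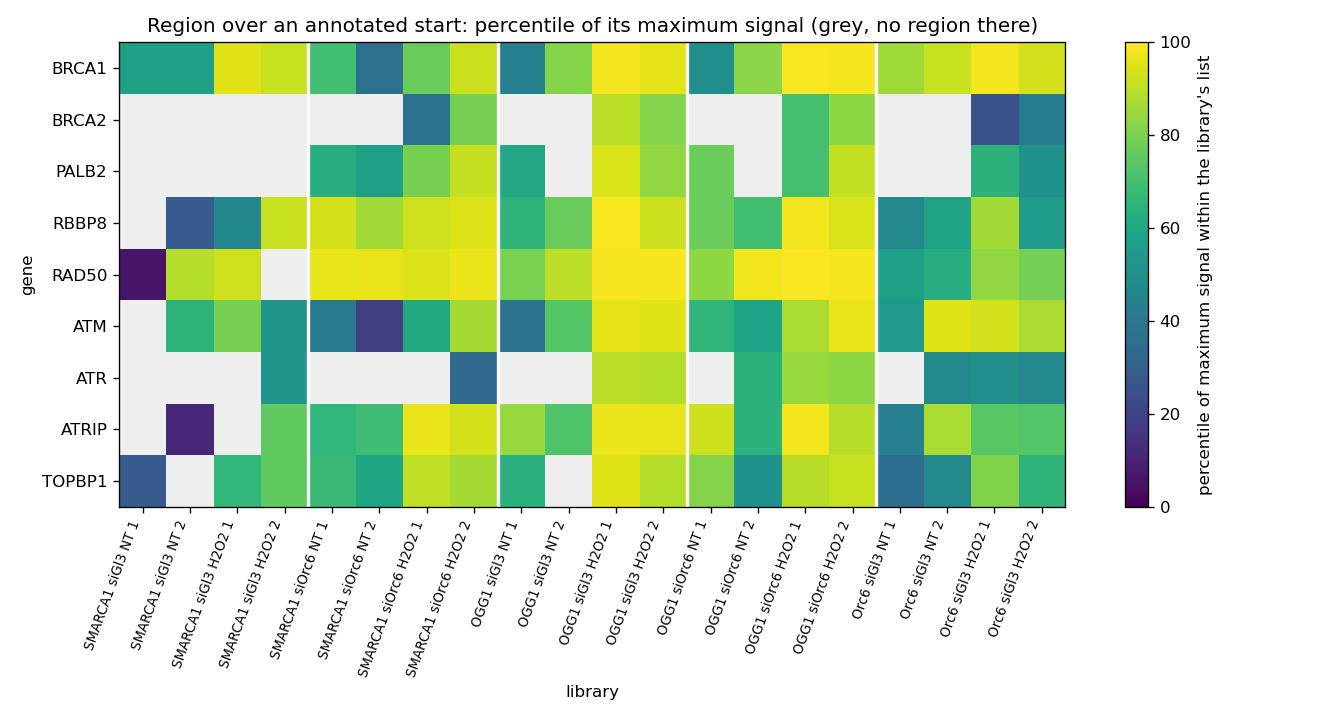
Percentile of maximum signal, within each library's own list, of the region over an annotated start; rows are genes, columns libraries, and grey means no region there. BRCA2 is grey in all 10 non-treated columns, and RAD50 reaches 98.6 to 99.6 in the OGG1 H2O2 columns.

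Depletion of Orc6 gave no difference that passed. Over SMARCA1 and OGG1 the siOrc6 minus siGl3 difference ran from -3.50 points at PALB2 (adjusted p = 1) to 10.30 at ATRIP (adjusted p = 0.883, exact permutation test). The median over the 9 was 0.05 points, against 0.16 over all genes. No gene passed, and 777 had an unadjusted p under 0.05. The smallest p in this exact permutation test was 0.00154, and the adjustment ran over 19970 genes. A gene could thus pass only if many others had so small a p, and the lack of calls does not show a lack of effect. PALB2 had a region at its start in 4 of 4 SMARCA1 siOrc6 libraries and 0 of 4 siGl3 ones, as did 4.84% of genes with a start window, with the reverse at 0.0253%. Its covered share in SMARCA1 libraries was 7.31%, 8.79%, 5.97% and 3.62% with siOrc6 and 0%, 0%, 3.55% and 0% with siGl3, sets that did not overlap. As a gene it was occupied in 4 against 1 (p = 0.143, Fisher's exact test). None of the 9 was occupied in all 4 of one siRNA and none of the other, a pattern seen at 2.26% of all genes with siOrc6 above and 0.0751% with siGl3 above. ATRIP also separated for SMARCA1, with 38.9%, 30.6%, 26.6% and 36.1% against 0.0%, 26.2%, 15.5% and 17.7%, a gap of less than 1 point between the nearest libraries. All 4 siOrc6 libraries were thus above all 4 siGl3 ones at 2 of the 9 genes, where 17.8% of all genes were, and below at none, against 0.706%. For OGG1 the PALB2 order was the other way with H2O2, 17.9% and 28.8% with siOrc6 against 39.9% and 56.2% with siGl3. Both siOrc6 libraries were below both siGl3 ones at 3 of the 9 genes in that setting, where 22.8% of all genes showed it, and both above at none, against 2.66% of all genes. In OGG1 without treatment both were above at 2 of 9 and below at none, where 9.78% and 6.04% of all genes were. For SMARCA1 both were above at 5 of 9 without treatment and 3 of 9 with H2O2, where 33.5% and 39.4% of all genes did. Both were below at 0 and 1 of 9, against 1.82% and 10.3% of all genes. With groups of 2 the smallest exact permutation p is 0.333, so these orders were not tested alone.

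Of 43 other genes of the pathway, 25 passed for H2O2 in covered share, all higher. This is 25 of 43 beside the 41.9% of all genes that passed in that direction. Their median difference was 20.86 points, and the list was compiled with earlier results of these data known. By role, 8 of 11 genes of the BRCA1 complexes and resection passed, 10 of 14 of ATM and ATR signalling, 4 of 11 of strand pairing and its mediators and 3 of 7 of joint molecule resolution. The 5 largest of those that passed were RAD54L, a DNA translocase of strand pairing, at 41.47 points (adjusted p = 0.00891), CLSPN, the adaptor that lets ATR reach CHK1, at 39.58 (0.0120), HUS1, of the checkpoint clamp, at 36.78 (0.0142), CHEK2, the ATM effector kinase, at 36.14 (0.0120), and EXO1, a resection nuclease, at 35.17 (0.00745), by the exact permutation test. All 5 differences exceeded that of BRCA1. In OGG1 occupancy 2 of 43 passed as BRCA2 did, BRCC3, a deubiquitinase of the BRCA1-A complex, and SEM1, which binds BRCA2 (adjusted p = 0.0323 each, Fisher's exact test). Since 7.84% of all genes had that pattern, these 2 are no more than the background gives. For the siRNA 0 of 43 passed, in tests that called no gene at all.

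For each of the 9, the gene elsewhere in the genome with the most similar covered share over the 20 libraries was found by Pearson r. They were TULP4 for BRCA1 (0.995), NAT1 for BRCA2 (0.985), TMEM38A for PALB2 (0.970), SYNJ2BP for RBBP8 (0.990), STK3 for RAD50 (0.996), CRYBG3 for ATM (0.991), VPS13B for ATR (0.990), FAM210B for ATRIP (0.974) and NFKB1 for TOPBP1 (0.992). None is one of the 43 pathway genes. All share list length, and no test was made.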

How the data were processed

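SEACR, Bowtie2, SAMtools, bedtools, deepTools, DiffBind and DESeq2 and build hg38 are named in the submitters' processing notes, without roles. Each deposited list gives regions with the total and the maximum signal as the authors' caller wrote them, 1 list per library, and the normalization of that signal is not stated. Values were used only as percentiles within a list. A further 4 tables, used as positions only, hold the authors' windows for SMARCA1. Reads were paired and 150 bases long, from 500000 cells fixed with 0.1% formaldehyde for 1 min, per the labels' protocols.

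Gene spans and starts came from RefSeq tables (GRCh38.p14), and 15811 of 19970 genes had a start window. For each gene and library the percent of the span, with 1 kb on each side, under regions, and occupancy by at least 1 base, were computed. H2O2 and siRNA were compared by a two-sided exact permutation test of labels within antibody and the other factor (7776 or 1296 arrangements). Occupancy was compared within an antibody by two-sided Fisher's exact tests that pooled the other factor. Both had Benjamini-Hochberg adjustment over all genes that could be tested, at 0.05. Permuting the antibody label also carries the antibody's overall difference. In simulated data with 30 points added to 200 genes, 61.5% were recovered with 4 unchanged genes called. With occupancy switched in 200 genes none passed after adjustment, and with 3000 genes all did.

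Same-numbered libraries share a batch in the labels, so the numbers pair the libraries, and the test was repeated with pairs kept together. P-values measure the spread between these libraries, which may be technical. Other settings left out each library, changed the span or overlap, filtered regions or equalised the lists. Start windows, and BRCA1 up to its usual start, were added after the data were seen. Members and gene lists were chosen with earlier results of these data known. Named genes were the 9, up to 5 pathway genes per comparison with the largest difference among those that passed, protein-coding neighbours within 1 kb, and the gene most alike in covered share. Calculations used Python 3.11.15, numpy 2.4.6, pandas 2.3.3, scipy 1.17.1 and matplotlib 3.10.9. Transcripts were not measured, so the knockdown was not checked.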

Additional observations from a re-analysis of the deposited data

Results flagged for a closer look

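The authors' SMARCA1 window tables were outside the comparisons, and 3 of the 4 held windows at more than 3 of the 9 genes. They give positions only, and the labels do not say which samples they compare. The table named for non-treated cells and "up" had a window at 5 of the 9 genes, PALB2, RBBP8, RAD50, ATRIP and TOPBP1, each at the start, and at 34% of all genes. The table for H2O2 and "up" had one at 7 of the 9 and at 50.1% of all genes. These were the usual start of BRCA1, the starts of PALB2, RBBP8, RAD50, ATRIP and TOPBP1, and, at ATR, a window at its 3′ end (142446970 to 142448970). The table for H2O2 and "ns" had one at 5 of the 9 and at 44.5% of all genes. BRCA1 (far start), BRCA2 and ATM had it at a start, and ATRIP and TOPBP1 inside the gene.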

How the results depend on the processing

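For H2O2 in covered share, 0 genes were higher with the same number of regions or the same covered bases, 4102 with the replicate block and 1189 after subtracting the mean of all genes, against 8358. Genes lower numbered 2 with no margin, 0 with 5 kb margins, equal lists, the list-median filter or the replicate block, and 5423 after the subtraction, against 1. Leaving out 1 library gave 5662 to 8980 higher and 0 to 3 lower. Values that turned were ATM at -0.001 with the same number of regions, and BRCA2 at -10.082, ATM at -2.774 and ATR at -1.223 after the subtraction, which by its construction sets the mean change over all genes to 0. The list-median filter ended the calls on BRCA2 (adjusted p = 0.254), ATR (0.151), RBBP8 (0.0606) and RAD50 (0.0683) in the exact permutation test, and no margin that on RBBP8 (0.0505).

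For OGG1 occupancy, 0 genes passed with either equal list, with the replicate block, whose smallest p is 0.125, or with adjustment over genes occupied in 1 to 7 of 8 libraries, against 1565. The list-median filter gave 2627, PALB2 and ATR among them (adjusted p = 0.0313, Fisher's exact test). Leaving out 1 library gave 0 to 2699 genes, 0 without any of the 4 H2O2 libraries and 2699 without the second siOrc6 non-treated one. For this comparison the equal OGG1 lists were cut to 17813 regions or to 165.7 Mb. PALB2 turned to -1 library with the same covered bases. For SMARCA1 occupancy with H2O2, the list-median filter gave 1526 higher and 2 lower, against 0, with RBBP8, ATM and TOPBP1 among the higher (adjusted p = 0.0485, Fisher's exact test), and ATRIP turned to -1 with the same number of regions. For SMARCA1 with siOrc6, the same number of regions gave 962 higher and 67 lower, against 0, and TOPBP1 turned to -3 there and with the same covered bases, where ATM was at -1.

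In covered share ATRIP turned to -2.011 for siOrc6 with the same number of regions. The OGG1 minus SMARCA1 change turned with the same covered bases at BRCA1 (-0.414), RBBP8 (-0.754), RAD50 (-1.347), ATM (-0.326), ATRIP (-3.466) and TOPBP1 (-1.37), and after the subtraction at BRCA2 (-14.503) and ATM (-3.41). At start windows RAD50 was at 20 points with the same covered bases and 30 with the list-median filter, against -10. Where not stated, the cause was not tested. Beyond the calls the report names, the replicate block, which keeps pairs of a batch together, changed no call on the 9 genes. Of the other values for the 9 genes, 1059 kept direction and call, 67 lost a call and 7 gained one. Unknown depth limits every comparison of list with list.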
